A study of Mus musculus with 24 samples.

Results

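The Sox9 CUT&RUN libraries of this mouse kidney study were 8 of its 24 samples, 4 from 10 days and 4 from 48 h after injury, chosen by their titles. Each has 1 peak list, and the 8 lists are part of 16, the other 8 being of the histone mark H3K4me3 from the same cell pellets. CUT&RUN releases the DNA around a protein by a nuclease that an antibody brings to it. The question of the comparison was whether Sox9 peaks lay at other places or genes 10 days after injury than at 48 h.

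All mice were males of 9 to 12 weeks and 25 to 30 g with the genotype Sox9IRES-CreERT2/+:R26RtdT/+ and bilateral renal ischemia reperfusion injury. In such mice the Sox9 gene carries a tamoxifen-inducible Cre recombinase, and tamoxifen given at injury switches on the red protein tdTomato in cells with an active Sox9 locus and in their descendants. Red cells of cortex and outer medulla were sorted, so both times hold the lineage and not cells chosen for Sox9 at the time of sampling. One Sox9 allele carries the Cre cassette in both groups, and no uninjured or Cre-negative group is in the comparison. Pellets of about 100000 cells were fixed in 0.2% PFA, frozen and divided into 3 aliquots, for Sox9 (antibody AB5535), H3K4me3 and an input. The replicates were labelled as biological, and whether cells of several animals were pooled is not given in the sources used here. The 12 samples titled 48h carry a cell type label that says d10, and the titles were followed.

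Sox9 is a transcription factor with an HMG box, a domain that binds the minor groove of DNA and bends it. It specifies cartilage, where Col2a1 is a classical target, and in the kidney it is switched on in tubule cells after injury, during repair. Sox factors are known to bind short sites with the core AACAAT or its reverse complement ATTGTT, often far from gene starts. H3K4me3 marks the starts of active genes.

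Sox9 summits, the highest points of peaks, recurred at few promoters. Of 20085 RefSeq start sites with a promoter sequence, 17406 had no summit in any of the 8 libraries within the 250 bases before to 50 after the start. A summit lay there in 1 library at 2387 promoters, in 2 at 268, in 3 at 22, in 4 at 1 and in 5 at 1. The promoter with the most libraries was that of Tmem116, chr5:121452459-121452758 on the plus strand, with a summit in 2 libraries at 10 days and 3 at 48 h. The next was that of Oxld1, chr11:120458021-120458320 on the minus strand, with 2 at each time. Fbxo6 (chr4:148151876-148152175, minus strand) is shown because its end was called for 10 days below, and Wnt4 (chr4:137277385-137277684, plus strand), which encodes a ligand of kidney development, because it is a gene of tubule injury with a summit there at both times. The sequences are from RefSeq in GRCm38.p6, the assembly of mm10, 5′ to 3′ on the gene's strand, with the bases covered by a Sox9 peak of any library in capitals.
Tmem116: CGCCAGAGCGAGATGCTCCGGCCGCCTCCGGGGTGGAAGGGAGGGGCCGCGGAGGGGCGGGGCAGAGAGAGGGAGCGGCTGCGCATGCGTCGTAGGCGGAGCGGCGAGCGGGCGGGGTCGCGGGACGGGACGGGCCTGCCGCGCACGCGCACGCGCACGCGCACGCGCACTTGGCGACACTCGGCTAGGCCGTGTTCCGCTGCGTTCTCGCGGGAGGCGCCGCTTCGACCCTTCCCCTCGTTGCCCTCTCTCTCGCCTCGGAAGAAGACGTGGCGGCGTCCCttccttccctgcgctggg
Oxld1: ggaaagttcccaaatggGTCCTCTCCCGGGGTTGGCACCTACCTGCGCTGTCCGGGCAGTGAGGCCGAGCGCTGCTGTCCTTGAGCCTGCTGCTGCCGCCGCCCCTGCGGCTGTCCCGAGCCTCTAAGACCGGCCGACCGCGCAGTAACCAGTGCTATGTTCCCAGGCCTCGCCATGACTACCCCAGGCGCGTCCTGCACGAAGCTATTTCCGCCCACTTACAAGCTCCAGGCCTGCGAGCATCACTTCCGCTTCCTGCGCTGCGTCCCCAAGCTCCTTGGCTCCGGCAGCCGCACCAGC
Fbxo6: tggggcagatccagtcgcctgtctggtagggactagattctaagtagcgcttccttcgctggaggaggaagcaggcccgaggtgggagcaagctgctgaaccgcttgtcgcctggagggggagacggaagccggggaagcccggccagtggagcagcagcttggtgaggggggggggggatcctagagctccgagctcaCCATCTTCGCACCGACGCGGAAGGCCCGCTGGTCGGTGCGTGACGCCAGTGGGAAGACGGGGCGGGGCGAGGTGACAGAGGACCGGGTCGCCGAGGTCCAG
Wnt4: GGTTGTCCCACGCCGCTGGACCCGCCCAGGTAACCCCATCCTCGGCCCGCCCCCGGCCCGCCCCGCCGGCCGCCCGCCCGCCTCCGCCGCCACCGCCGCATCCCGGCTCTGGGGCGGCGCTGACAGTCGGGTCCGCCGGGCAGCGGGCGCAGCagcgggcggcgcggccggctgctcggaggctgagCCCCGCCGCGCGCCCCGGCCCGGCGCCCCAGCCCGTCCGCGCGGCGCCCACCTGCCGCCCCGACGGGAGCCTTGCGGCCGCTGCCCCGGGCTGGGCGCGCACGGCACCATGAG
Peaks covered 282 of the bases shown for Tmem116, 283 for Oxld1, 101 for Fbxo6 and 266 for Wnt4. In Wnt4 the stretches of capitals belong to different libraries: a peak of 10 days replicate 1 had its summit 2 bp before the start, and one of 48 h replicate 3 had it 225 bp before. None of the 4 sequences holds AACAAT or ATTGTT. A missing match says only that these letters are not in the window.

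The promoters with a summit, over all peaks of a list, were rich in G and C at both times. Their mean GC content was 63.6%, 66.3%, 66.7% and 66.1% in replicates 1 to 4 at 10 days and 66.0%, 66.2%, 67.1% and 66.9% at 48 h, against 56.5% over all 20085. The means were 65.7% ± 1.4 (SD, n = 4) and 66.5% ± 0.54 (SD, n = 4), which did not differ beyond the spread (two-sided exact permutation p = 0.286, adjusted p = 0.5 over the 7 comparisons added at start sites). AACAAT or ATTGTT, searched on both strands, stood in 3.87% ± 1.69 (SD, n = 4) of them at 10 days and 3.36% ± 1.62 (SD, n = 4) at 48 h, exact permutation p = 0.714, adjusted p = 0.714. The share among all promoters of that length was 8.78%, and among promoters with an H3K4me3 summit 3.36% ± 1.03 (SD, n = 8), so the share at Sox9 summits was near that of the histone mark. Between 6 and 32 promoters per library held the core, which limits these shares.

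The lists differed widely in length within each time. On chromosomes 1 to 19 they held 81519, 14180, 16624 and 38014 peaks at 10 days and 7379, 25384, 15349 and 16139 at 48 h, 214588 in all. Replicate 1 of 10 days was thus the longest and replicate 1 of 48 h the shortest. Peak heights solved from the deposited fold and p-value came in whole steps, and 95.8% to 97.7% of the peaks of a list were 1 step high, the most frequent height. Between 184 and 3432 autosomal peaks per list were higher. Read depth was not given in the sources used here, so precision rests on the 4 libraries of a time. To compare lists of such unequal length, 7379 peaks were drawn at random from each list, 100 times, and each value below is a library's mean over its draws unless all peaks are named. The list of 48 h replicate 1 is drawn whole each time.

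Sox9 peaks lay nearer to genes than evenly spaced positions at both times, and their placement did not differ between 10 days and 48 h beyond the spread between libraries. Of 10 placement measures, 0 passed (0.0% called at an adjusted p of 0.05), and in each the values of the 2 times overlapped. With 4 libraries against 4 the smallest exact p is 0.0286, and at least 6 of the 10 measures would have had to reach it for any to pass the adjustment. All p-values of this family are two-sided exact permutation values with Benjamini-Hochberg adjustment over the 10; the unadjusted ones ran from 0.143 to 0.6, and 0 were under 0.05.

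The share of summits inside a protein-coding gene was 45.4%, 50.3%, 49.98% and 48.4% in replicates 1 to 4 at 10 days. It was 49.5%, 49.9%, 52.1% and 49.5% at 48 h. Replicate 1 of 10 days was the lowest of all 8, and the other 3 of that time lay among or next to the 48 h libraries. The means were 48.5% ± 2.3 (SD, n = 4) and 50.3% ± 1.2 (SD, n = 4), a difference of -1.76 percentage points (exact permutation p = 0.286, adjusted p = 0.464). Without replicate 1 of 10 days the difference was -0.71 points. Points placed every 1000 bp along the same chromosomes gave 40.9%, and 8 of 8 libraries lay above that. The points were not filtered for stretches where reads cannot be placed, so part of this gap can come from the grid.

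Gene ends, within 1000 bp of either end of a protein-coding gene, took 5.57%, 9.43%, 9.81% and 7.54% of summits at 10 days and 9.46%, 9.13%, 11.2% and 8.74% at 48 h. The 2 long lists of 10 days were lowest and replicate 3 of 48 h highest, and the remaining 5 libraries lay within 8.74% and 9.81%. The mean of 10 days, 8.09% ± 1.95 (SD, n = 4), was 1.55 points under that of 48 h, 9.64% ± 1.10 (SD, n = 4), with an exact permutation p of 0.257 and an adjusted p of 0.464. Leaving out replicate 1 of 10 days brought the difference to -0.71 points. The even grid gave 3.10%, so that gene ends held more summits than the grid in each of the 8 libraries. The draws reached the ends of 654 ± 159 genes (SD, n = 4) at 10 days and of 778 ± 84 (SD, n = 4) at 48 h, and the bodies of 2826 ± 151 and 2931 ± 83 genes (SD, n = 4 each), of 20665 autosomal protein-coding genes. The exact permutation p-values were 0.257 for ends and 0.343 for bodies, and both adjusted p-values were 0.464. The differences, -124 and -105 genes, were -55.9 and -35.4 without replicate 1 of 10 days.

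Far summits, over 100 kb from any protein-coding gene, made up 21.7%, 18.4%, 17.8% and 19.3% of the draws at 10 days and 18.3%, 18.3%, 16.4% and 18.1% at 48 h. The grid gave 27.3%, above all 8 libraries. The mean difference was 1.49 points (exact permutation p = 0.2, adjusted p = 0.464), or 0.70 without replicate 1 of 10 days. Among summits outside genes the median distance to the nearest gene was 58.6, 49.4, 47.2 and 52.0 kb at 10 days and 46.7, 49.6, 45.3 and 48.1 kb at 48 h, against 82.4 kb on the grid. Here too the 2 long lists of 10 days were the highest, and the difference of means, 4.36 kb, had an exact permutation p of 0.143 and an adjusted p of 0.464. Without replicate 1 of 10 days it was 2.09 kb.

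**Figure D1:**
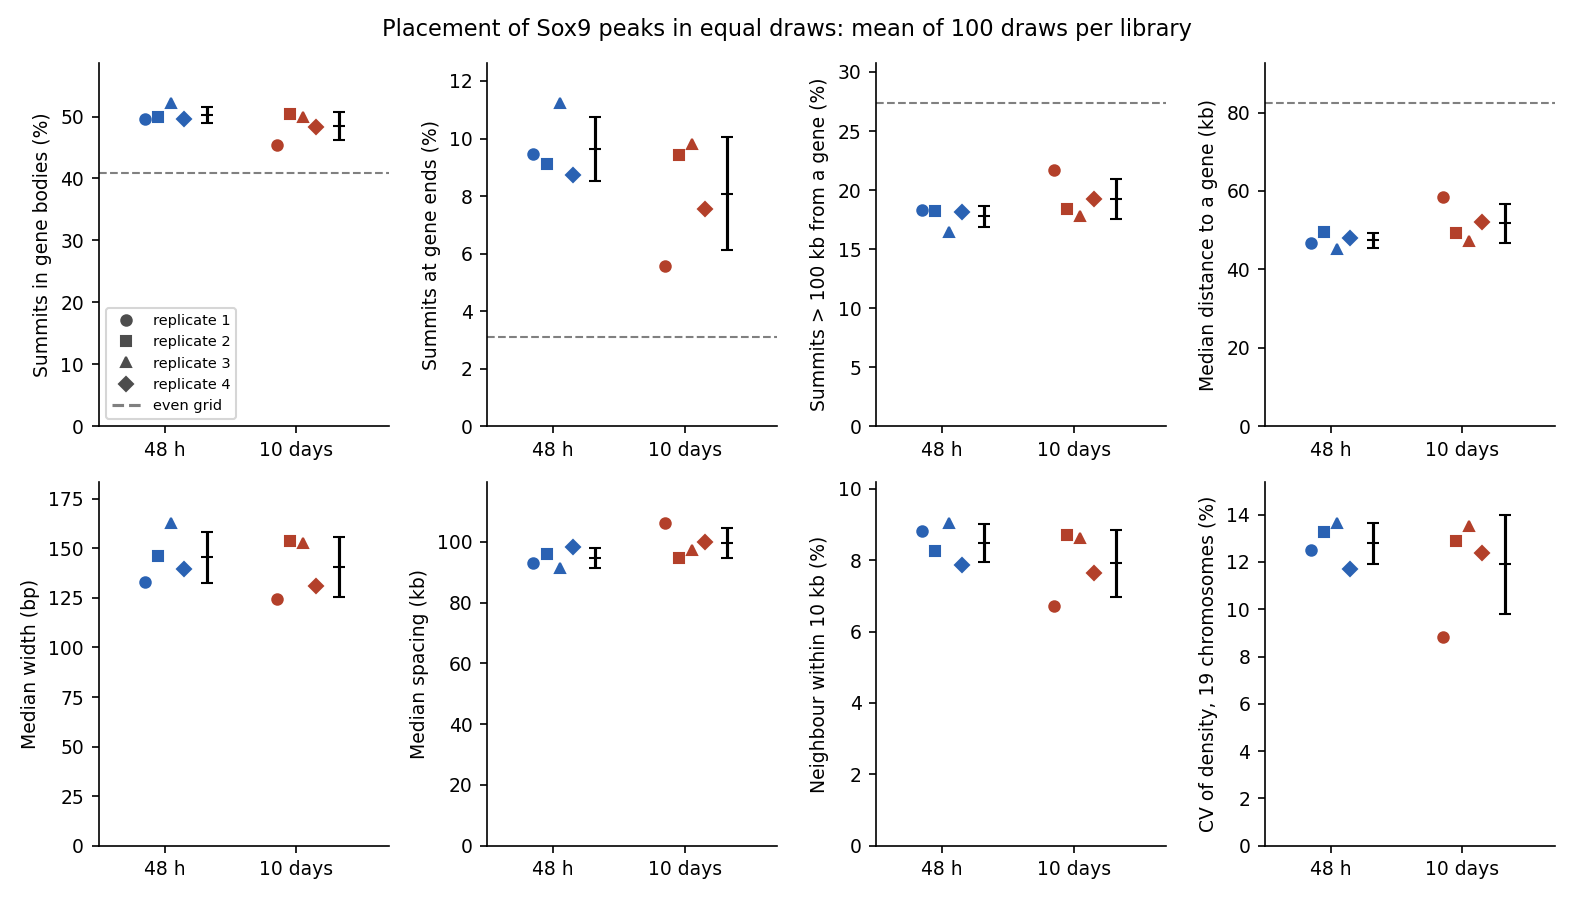
The panels give 8 measures of where Sox9 peaks lie, by time after injury, each point being 1 library's mean over 100 draws of 7379 peaks, with the mean and SD of 4 libraries as black bars and the value of an even grid as a dashed line where it applies. The libraries of 10 days and 48 h overlap in every panel, and replicate 1 of 10 days (circle) is lowest in gene bodies, 45.4%, and at gene ends, 5.57%.

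Peak width and spacing overlapped in the same way. The median width was 125, 154, 153 and 131 bp at 10 days and 133, 146, 163 and 139 bp at 48 h, in each time spanning about the same range (exact permutation p = 0.6, adjusted p = 0.6). The difference of means was -4.89 bp and turned to 0.45 bp without replicate 1 of 10 days and to 0.94 bp without replicate 3 of 48 h. The median distance from a summit to the next of the same draw was 99.6 ± 5.0 kb at 10 days and 94.7 ± 3.2 kb at 48 h (SD, n = 4 each), exact permutation p = 0.143 and adjusted p = 0.464. That difference, 4.87 kb, was 2.64 kb without replicate 1 of 10 days. A neighbour within 10 kb was held by 7.92% ± 0.94 and 8.50% ± 0.53 of summits (SD, n = 4 each; exact permutation p = 0.371, adjusted p = 0.464), a difference of -0.58 points that was -0.17 without the same library.

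Placement moved with the length of the list. Over the 8 libraries, the log10 number of peaks in the list and the gene-end share in equal draws had a Pearson r of -0.815 (exact permutation p = 0.0185, adjusted p = 0.0463 over 5 relations) and a Spearman rho of -0.69 (exact permutation p = 0.0694, adjusted p = 0.174). For the median distance to a gene r was 0.899 (exact permutation p = 0.00375, adjusted p = 0.0187) and rho 0.786 (exact permutation p = 0.0279, adjusted p = 0.14). Without the 2 libraries farthest from the median length, replicates 1 and 4 of 10 days, r was -0.083 for gene ends and 0.474 for distance. The relations thus rest on those 2 libraries, and both are of 10 days, so list length and time cannot be told apart there. The other relations, with gene body share, far share and width, had adjusted Pearson p-values of 0.0513, 0.0513 and 0.219 (exact permutation).

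**Figure D2:**
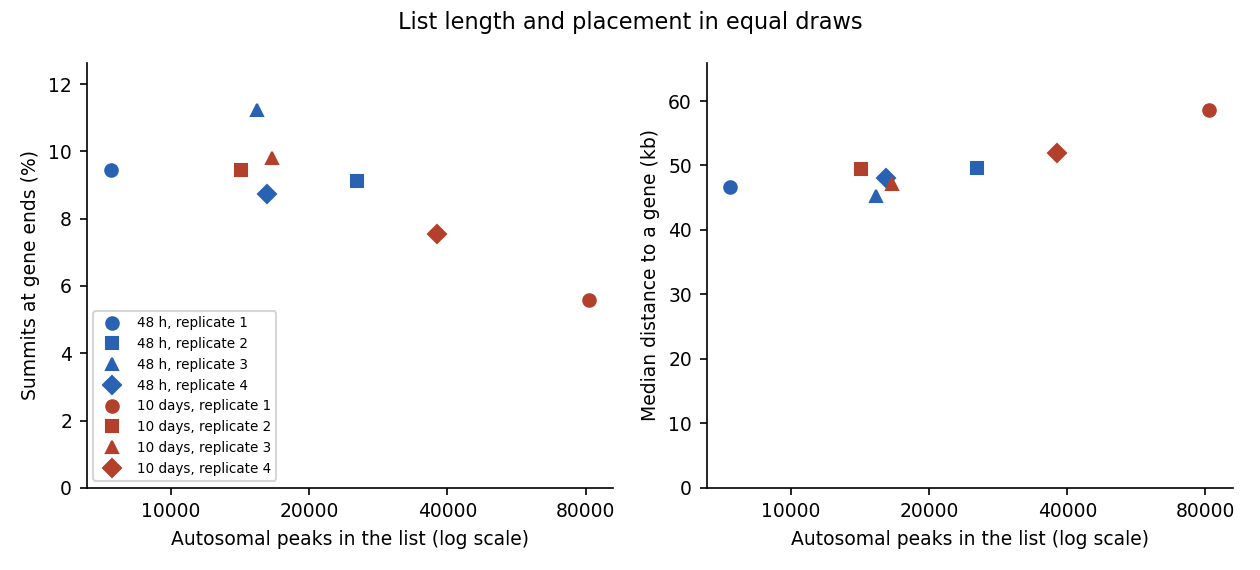
The share of summits at gene ends (left) and the median distance of summits outside genes to the nearest protein-coding gene (right) against the number of autosomal peaks in the list on a log scale, 1 point per Sox9 library, all values from equal draws. The 2 longest lists, 81519 and 38014 peaks, both from 10 days, have the lowest gene-end shares and the highest distances.

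H3K4me3 lists of the same pellets, drawn in the same way, gave values close to those of Sox9. In these lists 92.5% to 97.1% of peaks were 1 step high. Whether the lists of either antibody hold mostly background was not tested. At 10 days 48.8% ± 0.17 of H3K4me3 summits lay in gene bodies and at 48 h 49.9% ± 0.63 (SD, n = 4 each). That difference, -1.12 points, had the sign of the one in Sox9 and an exact permutation p of 0.0286, the smallest possible, with an adjusted p of 0.143. The coefficient of variation of peak density over chromosomes also did not overlap in H3K4me3, 11.3% ± 0.24 at 10 days and 12.7% ± 1.2 at 48 h (SD, n = 4 each), a difference of -1.45 points with the same exact permutation p, 0.0286, and adjusted p, 0.143. At gene ends H3K4me3 had 8.92% ± 1.20 at 10 days and 8.50% ± 0.42 at 48 h (SD, n = 4 each; exact permutation p = 0.714, adjusted p = 0.714). The Sox9 share minus that of H3K4me3 in the same pellet was -0.83 points ± 2.96 at 10 days and 1.13 ± 1.01 at 48 h (SD, n = 4 pellets each). The pellets ran from -5.12 to 1.43 points at 10 days and from -0.10 to 2.37 at 48 h. The lowest was replicate 1 of 10 days, with 5.57% for Sox9 and 10.7% for H3K4me3, the highest H3K4me3 share. The change of -1.97 points between times had an exact permutation p of 0.2, the lowest of the 10 measures, and all 10 adjusted p-values were 0.857.

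Most of the excess at gene ends lay at their start sites. Taking all autosomal peaks of a list, within 1000 bp of a RefSeq start site fell 3.38%, 6.54%, 7.26% and 5.11% of the summits of replicates 1 to 4 at 10 days and 6.76%, 6.23%, 8.34% and 6.04% at 48 h, against 1.46% of grid points. That is 2.3 to 5.7 times the grid. At 3′ ends the same window held 1.54% to 1.99% against 1.20% on the grid, 1.28 to 1.66 times. Start sites were known for 16457 of the 20665 genes, 79.6%, so the shares cover those genes only. The start share was 5.57% ± 1.71 at 10 days and 6.84% ± 1.05 at 48 h (SD, n = 4 each) (exact permutation p = 0.286, adjusted p = 0.5 over the 7 added comparisons), and the difference, -1.27 points, was -0.54 without replicate 1 of 10 days. Among peaks of 2 or more steps the start share was higher than among all peaks in 7 of 8 libraries, 12.3% ± 5.0 at 10 days and 11.3% ± 4.6 at 48 h (SD, n = 4 each; exact permutation p = 0.686, adjusted p = 0.714). The exception was replicate 1 of 48 h, with 5.44% of 184 such peaks. In the H3K4me3 lists the start share was 5.56% to 8.32% over all peaks and 11.1% to 39.0% at 2 or more steps. The libraries of the 2 antibodies overlapped in both.

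Sox9 summits lay more often downstream than upstream of start sites. Again over all peaks, in the first 500 bp downstream of the nearest start site lay 1.41%, 3.13%, 3.85% and 2.38% of the summits at 10 days and 3.44%, 3.17%, 4.48% and 2.94% at 48 h. The 500 bp upstream held 0.87%, 1.56%, 1.85% and 1.34% and 1.60%, 1.54%, 1.87% and 1.64%. Downstream exceeded upstream in 8 of 8 libraries, by 1.62 to 2.40 times, while the grid gave 1.04 and the H3K4me3 libraries 1.17 to 2.07. The ratio was 1.87 ± 0.21 at 10 days and 2.10 ± 0.25 at 48 h (SD, n = 4 each), which overlapped (exact permutation p = 0.2, adjusted p = 0.5).

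**Figure D3:**
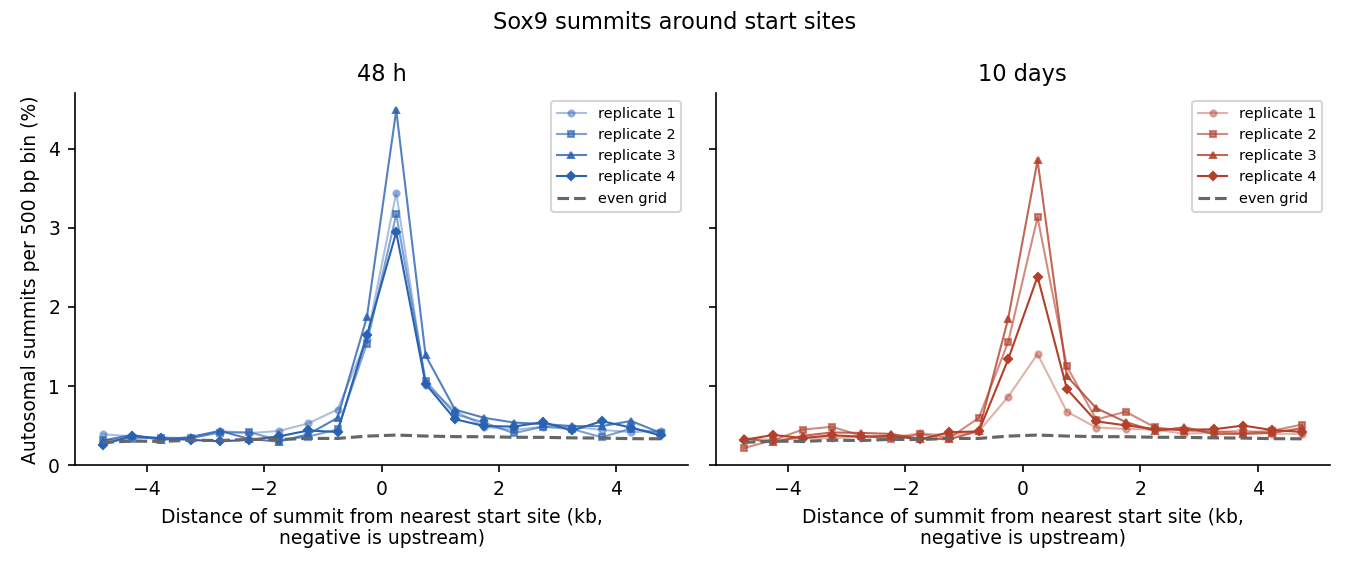
Percent of a library's autosomal Sox9 summits in 500 bp bins around the nearest RefSeq start site, negative distances being upstream, with 1 line per library for 48 h (left) and 10 days (right) and the even grid dashed. All 8 lines peak in the first bin downstream, between 1.41% (10 days replicate 1) and 4.48% (48 h replicate 3), against 0.382% on the grid.

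No chromosome passed the test between the times. Of 19 chromosomes 0 passed (0.0% called at an adjusted p of 0.05), and 0 had an unadjusted p under 0.05. The lowest exact permutation p was 0.114, for chromosome 10, with 5.11% ± 0.16 of drawn peaks at 10 days and 4.84% ± 0.22 at 48 h (SD, n = 4 each), and no adjusted p was under 0.814. At least 11 chromosomes at the smallest p would have been needed for a pass. Chromosome 11 was the densest at both times, with 3.81 drawn peaks per Mb at 10 days and 3.94 at 48 h, and chromosome 3 the sparsest, with 2.56 and 2.50. Over the 19 chromosomes the density of peaks and that of protein-coding genes had a Pearson r of 0.746 to 0.874 within a library, given as a description, since all points share 1 library. The coefficient of variation of density over chromosomes was 8.85%, 12.9%, 13.5% and 12.4% at 10 days and 12.5%, 13.3%, 13.7% and 11.7% at 48 h (exact permutation p = 0.6, adjusted p = 0.6). The difference of means, -0.89 points, was 0.13 without replicate 1 of 10 days, whose peaks were the most evenly spread. In the H3K4me3 lists the same measure was lower at 10 days without overlap, as given above.

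**Figure D4:**
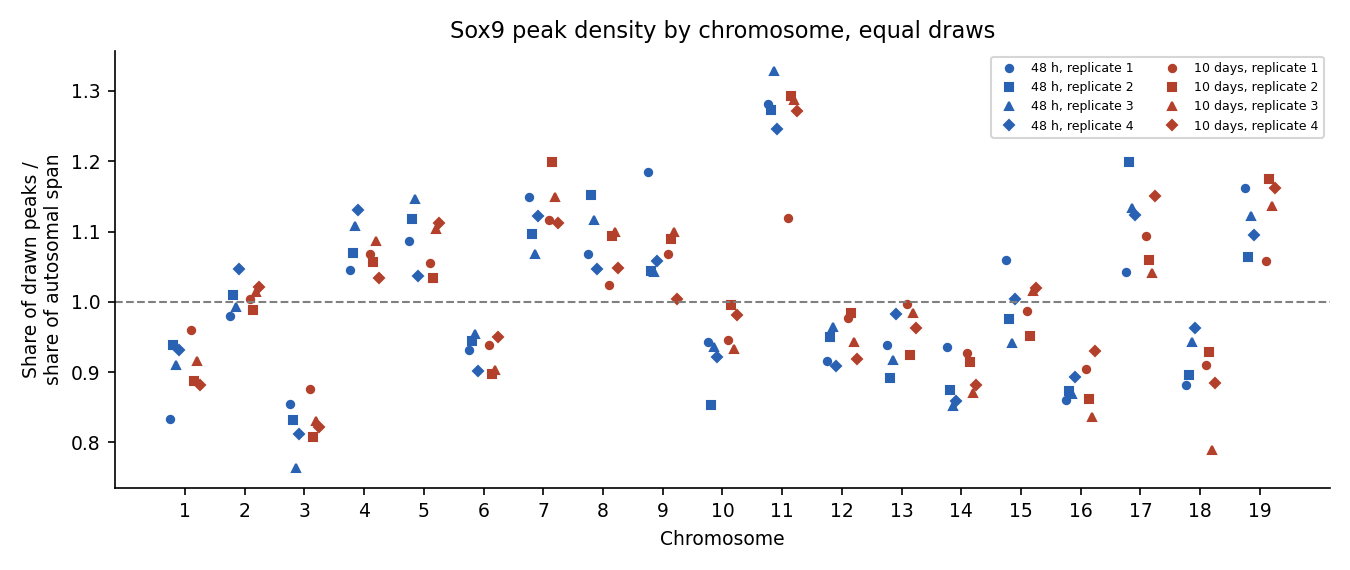
Share of drawn Sox9 peaks on each chromosome divided by that chromosome's share of the autosomal span, 1 point per library, with 1 (even density) dashed. The points of 48 h and 10 days overlap on each chromosome; chromosome 11 is highest and chromosome 3 lowest in the group means.

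Libraries of the same time shared hardly more positions than libraries of different times. A pair from 1 time shared 53.8 of 7379 drawn peaks on average (0.728%) and a pair from different times 50.9 (0.689%), counting drawn peaks of one list that overlap a drawn peak of the other by 1 bp or more. The difference of 2.89 peaks had an exact permutation p of 0.171 over the 35 splits of 8 libraries into 4 and 4. Without the regions that had a peak in 4 or more of the 8 lists, and with 7208 peaks drawn per list, the pairs shared 29.5 and 28.5 peaks, and the difference was 1.00 (exact permutation p = 0.314). Within 10 days the pairs shared 18.7 to 64.7 peaks, mean 35.5, and within 48 h 49.3 to 93.6, mean 72.0. Pairs across times, 22.6 to 84.5, spanned nearly the whole range. Replicate 1 of 10 days shared the fewest with every other library, and without it pairs within 10 days shared 48.9 on average, those within 48 h 72.0 and those across times 59.2. A position counts as shared only if both lists draw it. The draws took 9.05% of the list of 10 days replicate 1 and 100% of that of 48 h replicate 1. The levels within a time thus depend on list length too, and do not compare reproducibility between the times.

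**Figure D5:**
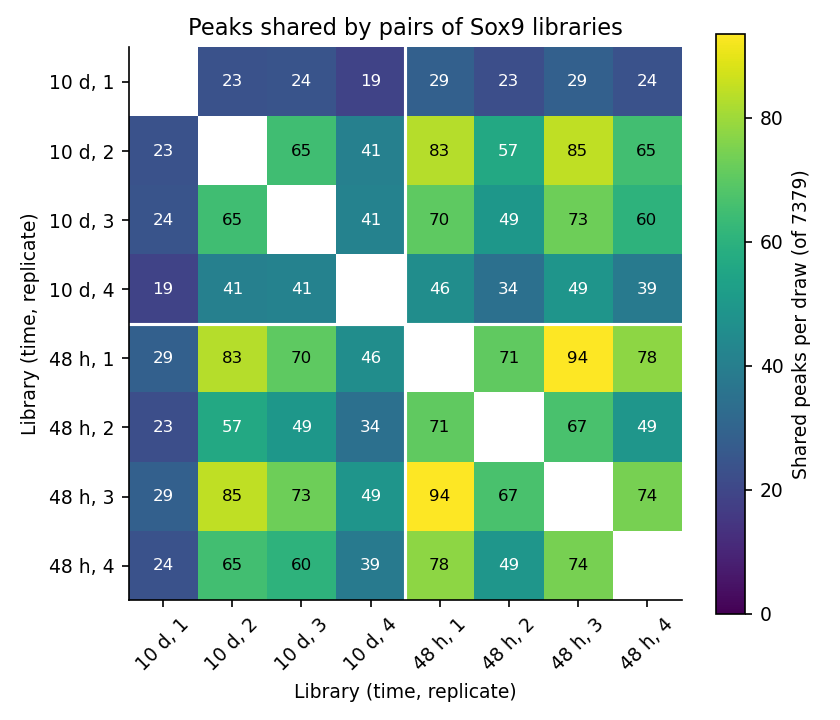
Number of drawn peaks shared by each pair of Sox9 libraries per draw of 7379, axes giving time and replicate, with white lines between the times. The lowest row and column belong to 10 days replicate 1 (18.7 to 28.8 shared peaks), and the highest pair is replicates 1 and 3 of 48 h, 93.6. The draws took 9.05% of the list of 10 days replicate 1 and 100% of that of 48 h replicate 1, on which the counts depend.

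Merging all Sox9 peaks of the 8 lists gave 205745 regions, of which 198960 (96.7%) came from 1 library. A peak in 4 or more of the 8 lists was found in 373 regions, and 37 had one in all 8. Among regions in all 8 were one over Krtap6-2, a hair keratin-associated protein gene, and one within Ttll11, and both also held a peak in 8 of 8 H3K4me3 lists. The highest of those in all 8 lay far from genes. At chr2:98666560-98667323, 1035 kb from the nearest gene, heights were 429 to 3159 steps, with a peak in 8 H3K4me3 lists. At chr2:98662239-98662974 they were 72 to 588 steps, with a peak in 7. The deposited fold over local background of these 2 regions was low. Ranked from the lowest, it lay at 0.0070 and 0.0087 of a library's peaks on average, in the order given. No such region was removed before the main draws. Of the 205745 regions, 4 had a peak in each library of 10 days and in 0 of 4 at 48 h (0.00194% called), and 0 had the reverse (0.0% called). With 150337 peaks at 10 days and 64251 at 48 h, the longer lists had more chances to fill 4 of 4. The 4 regions were chr5:115810035-115810443, 34.986 kb from Cit, chr11:53478463-53478970 over Sowaha, chr4:131836937-131837348 over Ptpru, and chr8:123622267-123622738, 31.4 kb from Rhou. Their peaks were 1 or 2 steps high, and their deposited fold was in the lowest 13.4% of a library's peaks, on average over the libraries, with H3K4me3 peaks in 4, 1, 3 and 3 of 8 lists.

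At gene ends hardly any gene separated the times. A gene was called when the share of draws with a summit at its end was higher in each of the 4 libraries of one time than in each of the other 4. The ends of 4 genes of 20665 were called for 10 days (0.0194% called) and 1 for 48 h (0.00484% called). The rule on all peaks, 4 of 4 lists against 0 of 4, called the same 4 (0.0194%) and the same 1 (0.00484%). Leaving out 1 library loosens the rule: the count for 10 days was then 20, 60, 39 and 22 without replicates 1 to 4 of 10 days and 10 without replicate 2 of 48 h, and that for 48 h was 37, 13, 8 and 10 without replicates 1 to 4 of 48 h and 2, 4 and 2 without replicates 2 to 4 of 10 days.

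The 4 genes of 10 days were Glis2, Fbxo6, Scrib and Cyba. Glis2 (chr16:4594320-4625141) encodes a zinc finger protein whose loss causes kidney fibrosis and nephronophthisis. Its end was drawn in 5%, 59%, 52% and 16% of draws in replicates 1 to 4 of 10 days and in 0% at 48 h, from 1 peak in each list. Each of those was 1 step high, and 3 lay near the upper end of the gene and 1 near the lower. The body of Glis2 also had peaks in 2 of the 4 lists of 48 h. Fbxo6 (chr4:148145716-148152135), which encodes a substrate receptor of a ubiquitin ligase, had 9%, 57%, 41% and 18% of draws at 10 days and 0% at 48 h. From the nearest of its RefSeq start sites, its 4 summits lay 237, 19 and 127 bp downstream and 538 bp upstream, all 1 step high. The last distance is from another start site than the others.

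Scrib (chr15:76047162-76069784), which encodes a scaffold of cell polarity, had 9%, 54%, 39% and 22% at 10 days and 0% at 48 h. Cyba (chr8:122424771-122432940), which encodes the p22phox subunit of NADPH oxidases, had 10%, 53%, 41% and 19% at 10 days and 0% at 48 h, with 1 peak of 2 steps, in replicate 4. For all 4 genes the order of the replicates of 10 days is that of their sampled fractions, 9.05%, 52.0%, 44.4% and 19.4% of each list, since 1 peak is drawn about as often as its list is sampled. For 48 h the gene was Sall3 (chr18:80966989-80987021), a zinc finger gene of the spalt family, with 0% at 10 days and 100%, 25%, 37% and 41% at 48 h. Its 4 peaks were 1 step high.

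In gene bodies 95 genes were called for 10 days (0.46% called) and 72 for 48 h (0.348% called). On all peaks, 75 genes had a peak in 4 of 4 lists of 10 days and 0 of 4 of 48 h (0.363%), and 4 the reverse (0.0194%). That rule uses whole lists and asks for presence against absence, so it differs from the rule on draws in both respects, and which of them moved the balance was not tested. Called genes were long, with a median of 51.7 kb for 10 days and 61.1 kb for 48 h, against 17.5 kb over all genes. Leaving out replicates 1 to 4 of 10 days gave 149, 340, 277 and 177 genes for 10 days, and leaving out replicates 2 to 4 of 48 h 198, 187 and 177. For 48 h the counts were 242, 201, 185 and 180 without replicates 1 to 4 of 48 h and 127 and 117 without replicates 2 and 3 of 10 days.

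The largest differences towards 10 days were in Phlpp1, Scarb1, Myo5a, Galnt16, Slc5a11, Ramp3, Ccbe1 and Zmym4. Phlpp1, a phosphatase gene of Akt signalling (chr1:106171869-106394245), had a summit in its body in 70%, 88%, 73% and 69% of draws at 10 days and in 0%, 37%, 0% and 0% at 48 h. Scarb1, the gene of the HDL receptor SR-BI, had 53%, 63%, 87% and 25% against 0% in each library of 48 h, from 8, 1, 3 and 1 peaks. Ramp3, a receptor-modifying protein gene, had 14%, 84%, 51% and 52% against 0%, and Slc5a11, a sodium-inositol transporter gene, had 50%, 79%, 84% and 63% against 0%, 27%, 46% and 0%. Of these 8 genes Phlpp1 had peaks of 2 or more steps in 2 libraries, Galnt16, Ramp3 and Zmym4 in 1, and the other 4 in 0. By presence in whole lists Scarb1, Galnt16, Ramp3 and Zmym4 kept the call, and Phlpp1, Myo5a, Slc5a11 and Ccbe1, each with a peak in 1 or 2 lists of 48 h, lost it.

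The largest differences towards 48 h were in Stimate, Erich3, Arvcf, Ankfn1, Tbkbp1, Napepld, Ccdc175 and Lamc3. Stimate, a gene of calcium entry at the endoplasmic reticulum (chr14:30825575-30877210), had 0% of draws at 10 days and 100%, 46%, 81% and 45% at 48 h. It had 2, 2, 2 and 1 peaks in the lists of 48 h, all 1 step high. Lamc3, a gene of a laminin chain of basement membranes, had 30%, 0%, 0% and 18% at 10 days and 100%, 46%, 98% and 43% at 48 h. Ankfn1, the longest of the 8 at 388 kb, had 60%, 0%, 0% and 48% at 10 days and 100%, 87%, 83% and 93% at 48 h. Tbkbp1 alone of the 8 had a peak of 2 or more steps, in 1 library. By presence in whole lists Stimate alone of the 8 kept the call, since each of the other 7 had a peak in 1 or 2 lists of 10 days. Replicate 1 of 10 days held 10 peaks in Ankfn1 and 5 in Erich3, and replicate 1 of 48 h held 2 and 1, but the latter list is drawn whole.

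Genes with a summit at an end in the most libraries, 6 to 8 of the 8, are present at both times by that choice and give no comparison of them. Rps29, a ribosomal protein gene, and Krtap6-2 had one in 8 of 8 libraries, with 2 or more steps in each, and Sfi1 and Wls in 7. The peak beside Rps29 lay on chr12:69159292-69159594 in each list and was 3 to 26 steps high. Zfpm1, Gm40365, Anxa3 and Yy1 had one in 6 libraries, 3 at each time. The mean share of draws was lower at 10 days in all 8 of these genes, by 12.0 to 31.5 points, and 7 of the 8 had 100% in replicate 1 of 48 h, the list that is drawn whole. Wls encodes the protein that carries Wnt ligands to the cell surface. Its end was drawn in 10%, 0%, 75% and 19% at 10 days and in 100%, 30%, 46% and 37% at 48 h. Peaks there had 2 or more steps in 6 libraries. In each of the 7 libraries a summit lay 854 to 944 bp past the 3′ end of the gene. That region, chr3:159939407-159939677, also held peaks in 8 H3K4me3 lists. Its deposited fold, ranked from the lowest, lay at 0.006 of a library's peaks on average. A second peak of 10 days replicate 3, 1 step high, lay 413 bp downstream of the start site.

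Genes of tubule injury and Sox9 biology (12 were looked at) ranged from no summit to body summits in 7 of 8 libraries, and none was called. Sox9 itself (chr11:112782210-112787757) had a summit at an end in 1 library of 10 days and 2 of 48 h, all 1 step high, and the summits of 10 days replicate 3 and 48 h replicate 2 lay 206 and 306 bp inside its lower coordinate. Havcr1, the gene of the injury marker KIM-1, had 0 libraries at ends, and in its body 0 at 10 days and 2 at 48 h. Vcam1, which marks tubule cells that fail to repair, and Spp1, the osteopontin gene, had no summit at ends or in the body in any of the 8 libraries, and Krt8, a simple epithelial keratin gene, had 1 at an end in 1 library of 10 days and none in the body. Cdh6, a cadherin of proximal tubule development, had body summits in 3 libraries of 10 days and 2 of 48 h, in 33.5% and 30.0% of draws on average.

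Wnt4 had an end summit in 2 libraries of 10 days and 1 of 48 h, and body summits in 2 and 3, in 23.3% and 51.3% of draws on average. Of these, 1 peak in 48 h replicate 3 had 2 steps. Col2a1 was the gene of this panel with body peaks in 3 of 4 lists of 10 days and 0 of 4 of 48 h: 11%, 0%, 75% and 47% of draws at 10 days from 1, 0, 2 and 3 peaks, against 0% and 0 peaks in each library of 48 h. Replicate 2 of 10 days, also without a peak, keeps it from being called. Its peaks were all 1 step high, and 4 of its 6 body peaks overlapped no peak of another Sox9 list. Lrp2, the gene of the endocytic receptor megalin, had body summits in 3 libraries of 10 days and 4 of 48 h, in 35.5% and 64.0% of draws on average. The shares over all genes were 13.7% and 14.2%, but Lrp2 is 161695 bp long and the median gene 17.5 kb, so they are not alike in length. Its shares at 48 h were 100%, 30%, 76% and 50%, the first from the list that is drawn whole. Hnf4a, a regulator of proximal tubule identity, had body summits in 2 libraries of each time. The renal lineage genes Pax8 and Pax2 had them in 1 and 2 and in 4 and 3, the latter in 40.5% and 55.8% of draws on average.

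Among 20 gene lists of kidney, injury and Sox biology, and the olfactory receptor genes as genes silent in kidney, the 2 times overlapped in each list at gene ends. In gene bodies they overlapped in each list but the one of fibrosis and matrix. Its 22 autosomal members were reached in 15.6%, 16.4%, 17.95% and 16.5% of draws on average in replicates 1 to 4 of 10 days and in 18.2%, 20.9%, 24.1% and 20.0% at 48 h. The means were 16.6% ± 0.97 and 20.8% ± 2.5 (SD, n = 4 each), against 13.7% ± 0.73 and 14.2% ± 0.40 over all genes. The median length was 33.85 kb in the list and 17.49 kb over all genes, and the shares were not adjusted for length. The gap between the highest library of 10 days and the lowest of 48 h was small, and 0 of the 22 members were called by themselves. Of the members 14 were higher at 48 h, 7 at 10 days and 1 had no peak, with a median difference of -7.38 points. Over all genes the median difference was 0, and 7399 were higher at 48 h and 8554 at 10 days. As this is 1 of 42 combinations of list and window, it is a description only.

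Within that list the collagen gene Col5a1 had a mean of 48.0% at 10 days and 73.5% at 48 h, and Lox, which encodes the enzyme that cross-links collagen, 0% and 25.0%, the latter from 1 library. Col1a1, the gene of a chain of collagen I, had 1.25% and 18.5%. In the other direction Col4a1, of the basement membrane, had 59.3% and 29.3%, and Tgfb1, of the main profibrotic cytokine, 15.0% and 0%. These 5 were named after their values were seen, and none was called.

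The Sox family, 18 autosomal genes, had end summits in 5.85% ± 6.15 of draws at 10 days and 9.25% ± 2.87 at 48 h and body summits in 18.4% ± 4.3 and 25.3% ± 6.2 (SD, n = 4 each), with overlap in both. At ends the replicates of 10 days were 2.28%, 3.17%, 15.1% and 2.89% and those of 48 h 5.56%, 9.28%, 9.61% and 12.6%, so that 1 library of 10 days was above all of 48 h. Sox6, a partner of Sox9 in cartilage and a gene of 570 kb, was its 1 called member, where 0.348% of all genes were called for 48 h: 53%, 73%, 66% and 59% of draws at 10 days and 100%, 90%, 87% and 91% at 48 h in the body, from 2 to 9 and 1 to 6 peaks. The call rests on the draws, since whole lists had a Sox6 body peak in 4 of 4 libraries at both times, and the 100% comes from 1 peak of the list that is drawn whole. Sox5, its close relative, had 94.8% and 97.0%. In the list of cartilage and matrix targets of Sox9, 16 genes, Sox6 was likewise the 1 called member, and the body means were 29.6% ± 4.2 and 32.9% ± 4.3 (SD, n = 4 each).

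The Notch pathway had the widest gap at gene ends: 2.05%, 5.27%, 1.86% and 2.00% at 10 days and 13.6%, 3.73%, 7.23% and 12.4% at 48 h, mean 2.80% ± 1.65 and 9.24% ± 4.60 (SD, n = 4 each), against 3.17% ± 0.77 and 3.77% ± 0.40 over all genes. Replicate 2 of 10 days lay above replicate 2 of 48 h. Of its 22 genes 10 were higher at 48 h, 4 at 10 days and 8 had no end summit, and 0 were called. Dll4, a Notch ligand gene, had 0% at 10 days and 35.5% at 48 h, from 2 libraries, and Jag2, another, 25.8% and 12.0%, both named after their values were seen. With 1 peak per library deciding such a gene, a list mean rests on few peaks.

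The list of injured and failed-repair tubule overlapped between the times: 1.80% ± 0.67 at 10 days and 1.26% ± 1.48 at 48 h at ends, and 7.69% ± 3.09 and 7.15% ± 2.28 in bodies (SD, n = 4 each). Clu, the gene of the secreted chaperone clusterin, was its called member, in the body for 10 days, where 0.46% of all genes were called. It had 10%, 52%, 46% and 13% against 0%, from 4 peaks of 1 step at 4 different positions. With 1 peak in each list of 10 days, these shares follow the order of the sampled fractions, 9.05%, 52.0%, 44.4% and 19.4%. The differentiated proximal tubule list had 11.8% ± 4.0 and 8.01% ± 4.05 in bodies, the Wnt ligands 20.9% ± 5.9 and 25.0% ± 3.8 and the Hippo pathway 18.5% ± 3.4 and 20.7% ± 4.5 (SD, n = 4 each). Housekeeping genes had end summits in 7.33% ± 2.86 and 7.86% ± 2.91 (SD, n = 4 each), and olfactory receptor genes in 0.702% ± 0.101 and 0.822% ± 0.262 (SD, n = 4 each). Immune markers had 1.18% ± 0.98 and 4.23% ± 5.04, endothelial markers 4.08% ± 3.93 and 5.44% ± 2.66 and stromal markers 2.47% ± 2.59 and 3.17% ± 3.75 at ends (SD, n = 4 each). Peak lists give no expression, and for cell type markers H3K4me3 was looked at only at gene ends, either end counting. In the H3K4me3 lists, ends of differentiated proximal tubule genes were drawn in 2.63% and of endothelial markers in 2.98%. Other nephron and duct markers had 3.70%, podocyte and parietal cell markers 5.30%, stromal markers 2.01% and immune markers 1.26%, against 3.45% for all genes. Proximal tubule genes thus lay above stromal and immune markers and below endothelial and podocyte markers and all genes, with no test of these differences. Genes silent outside their tissue had 3.43% and olfactory receptor genes 0.66%. As the former lay above proximal tubule genes, these values do not establish the identity of the sorted cells.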

How the data were processed

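Peak lists of 8 Sox9 and 8 H3K4me3 CUT&RUN libraries were used, each with its sample given by the series and its time by the title. The submitters' processing notes name the mm10 genome and the tools MACS3, Bowtie, Bowtie2 and Partek 10; for parameters, filters and depth nothing is given in the sources used here. The names of the peaks pair each list with the input of its pellet; the input libraries were not analysed here. Each row of a list holds a position, a summit, the authors' fold enrichment ratio over local background, and p and q values deposited as −log10. The score column deposited by the authors is a display value and was not used. The members, gene lists and tests were chosen with earlier results of these data known.

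Fold and p were solved for a peak's pileup and background, taking the fold as a ratio with 1 added to both and p as a Poisson tail; 99.6% or more of the peaks of a list had a pileup within 0.05 of a whole number of steps, 1 step being the most frequent pileup. Peaks on chromosomes 1 to 19 were placed by summit against 20665 protein-coding RefSeq genes of GRCm38.p6; no genome sequence was used. From each list 7379 peaks, the length of the shortest, were drawn without replacement 100 times with fixed seeds. Libraries, not peaks, were the replicates. Each p-value between the times sets the observed difference against those of rearranged libraries. The 2 times were tested by exact two-sided permutation (70 arrangements) with Benjamini-Hochberg adjustment, overlap by 35 splits, and genes by non-overlap with no p. Evenly spaced points every 1000 bp served as the reference for placement, with no filter for stretches where reads cannot be placed. Start sites, strand and promoter sequences came from a RefSeq promoter table. The scripts were tested on simulated data.

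Named genes were up to 8 called genes per window and direction, ranked by the difference, up to 8 with an end summit in the most libraries, 12 genes of injury and Sox9 biology, called members of the lists, and up to 5 regions of each kind. Start site, promoter and list length comparisons were added after seeing the data. Alternatives were all peaks, a −log10 q of at least 5, 2 or more steps, no recurrent regions (4 or more of 8 lists), the middle of the peak, wider windows, a replicate block and leaving out each library. Software was SciPy 1.17.1, NumPy 2.4.6, Matplotlib 3.10.9 and pandas 2.3.3 under Python 3.11.15.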

Additional observations from a re-analysis of the deposited data

Results flagged for a closer look

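Of 68 groups of 4 libraries looked at for a value far from the other 3, 5 stood out, and chance gives about 1 in 20, or 3.4. At 48 h, replicate 3 stood apart in 3 related measures: 52.1% of its drawn summits lay in gene bodies against 49.5% to 49.9% in the other 3 libraries, 16.4% lay over 100 kb from a gene against 18.1% to 18.3%, and 3056 genes had a summit in the body against 2882 to 2904. The same library had the highest share at gene ends. Replicate 1 of 48 h had 5.99% of its peaks on chromosome 9 against 5.27% to 5.35%. Replicate 1 of 10 days had 5.53% of its drawn peaks on chromosome 11 against 6.29% to 6.39%; it is also the longest list. Peaks outside chromosomes 1 to 19, which no comparison used, numbered 9849 over the 8 Sox9 lists, between 345 and 3901 per list. The causes of these values were not tested.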

How the results depend on the processing

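With 4 libraries a time only differences well above the spread between libraries could pass, and depth was not given. Of 145 values of the 10 placement measures under alternatives, 131 kept their direction and side of the threshold, and the lowest adjusted p was 0.25. The other 14 changed direction, and the cause was not tested apart from the construction of each setting. Among peaks of 2 or more steps, drawn to 184 per list, the difference of 10 days minus 48 h was 0.84 points for gene bodies, 0.72 for gene ends, -0.51 for far summits, -4.79 kb for median distance, 0.97 points for the spread of chromosome density, 2.06 genes at ends and 4.13 genes in bodies. On all peaks, where longer lists have more peaks by construction, it was -22.04 kb for spacing, 12.57 points for close neighbours, 1006 genes at ends and 2449 in bodies. Leaving out 1 library gave -9.34 to 0.94 bp for width and -1.42 to 0.13 points for the spread of chromosome density. Among the 8 other measures no direction changed on leaving out 1 library: gene bodies -2.37 to -0.71 points, gene ends -2.12 to -0.71, far share 0.70 to 1.99 (lowest exact permutation p 0.0286 without 10 days replicate 3, adjusted p 0.286). The overlap difference ranged from 0.64 to 6.34 peaks, with the 2 times weighted equally. On all peaks 4 genes were called in bodies for 48 h, and all 4 are among the 72 of the draws. Leaving out 1 library gave 4 to 60 genes at ends for 10 days, 1 to 37 for 48 h, 128 to 340 in bodies for 10 days and 84 to 242 for 48 h. No chromosome and no measure against H3K4me3 passed under any alternative run for them. Of the 21 named gene differences, 0 reversed. On all peaks 10 of them moved beyond the spread between libraries, the 4 end genes of 10 days, Scarb1, Galnt16, Ramp3 and Zmym4 to 100 points and Sall3 and Stimate to -100, where presence in a whole list counts as 100%.

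Replicate numbers recur at both times but mice of different times differ, so the numbers do not pair animals. Deviations of same-numbered libraries correlated between -0.011 and 0.006 over genes, and 1 of 4 correlated best with its own number. As the lists share few peaks, these correlations cannot show whether same-numbered libraries were processed together. With a replicate block, the differences were the same, -1.76 points for gene bodies and -1.55 for gene ends, and 0 of 10 measures and 0 of 19 chromosomes passed; exact sign flips of 4 pairs cannot go below p = 0.125.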

Other observations

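With the looser rule of a peak in 3 of 4 lists of one time and 0 of 4 of the other, 66 of 205745 merged regions were found for 10 days and 26 for 48 h, again with more peaks at 10 days. Those of 10 days include chr2:98663705-98664062, 11 to 62 steps high, which lies between 2 regions with peaks in all 8 lists. They also include regions in Sfi1, whose body had summits in 4 of 4 lists at both times. A region found by this rule is thus not by itself a site particular to a time. The longest autosomal peak was 32909 bp in replicate 1 of 10 days, 3315 to 4945 bp in the other 3 lists of that time, and 705 to 9139 bp at 48 h. The peak of 32909 bp spans chr9:3005390-3038298, 313 kb from the nearest gene. Peaks lay in that region in 4 lists of 10 days, 3 of 48 h and 7 of H3K4me3.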
